A study of Mus musculus with 2 samples.

Results

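Erythroid cells were a small population, mostly from the young library, of the kidney preparation: 65 of the 21661 kept barcodes, 63 in the young library and 2 in the old one. They were chosen by their own RNA. A barcode was kept when 200 or more genes had a UMI (unique molecular identifier, which counts 1 captured RNA molecule) and mitochondrial genes took no more than 20% of them. A kept barcode was taken as erythroid when it held at least 1 UMI of Alas2, at least 100 UMIs summed over the adult globin genes Hbb-bs, Hbb-bt, Hba-a1 and Hba-a2, no UMI of the leukocyte gene Ptprc, and UMIs of at most 2 of the proximal tubule (PT) genes Lrp2, Slc34a1, Cubn, Slc22a6 and Slc27a2. Globin, Alas2 and Ptprc values therefore describe the choice and support nothing further.

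The study made 1 scRNA-seq library from kidneys pooled from young MRL-lpr mice and 1 from kidneys pooled from old ones, to look for innate lymphoid cells in lupus nephritis. MRL-lpr mice carry the Fas lpr mutation in both groups and develop a lupus-like disease of the kidney with age, and the labels give no treatment for either group. Leukocytes were enriched on a density gradient, the study's general kidney method lyses red blood cells, innate lymphoid cells were enriched with a magnetic kit, and living cells were sorted, so a share of a library is not a share of the kidney. With 1 library per age, no test of the ages is possible, cells are not replicates, and every interval below covers counting error only.

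The libraries held 156787812 UMIs in 15076 young barcodes and 126334256 UMIs in 12622 old barcodes, and the kept barcodes had medians of 7881 and 6933 UMIs. The methods describe female mice, yet RNA from the Y chromosome without any Xist was found in 50.8% of the young library's kept barcodes and 40.6% of the old library's. Among the 63 young erythroid cells, 2 held Xist and 2 held a Y-linked gene, too few to sort the cells by sex. The libraries shared 41 barcode sequences, 1 of which was a young erythroid cell whose barcode in the old library had 2 globin UMIs and 2596 genes.

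Erythroid cells mature from nucleated precursors into reticulocytes, which have lost the nucleus, and then into red blood cells. Late in this course transcription stops, organelles are cleared, and the remaining RNA is dominated by the alpha- and beta-globin chains of hemoglobin, for which Alas2, the erythroid form of the first and rate-setting enzyme of heme synthesis, supplies the heme. In the kidney such cells come with the blood, while the organ's own interstitial cells make erythropoietin, the hormone that drives their formation.

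The genes that chose the cells lie in tandem or alone in the genome. Hbb-bs (chr7:103826534-103828096, minus strand) and Hbb-bt (chr7:103812524-103813996, minus strand) encode adult beta-globin, Hba-a1 (chr11:32283511-32284465, plus strand) and Hba-a2 (chr11:32296489-32297298, plus strand) encode alpha-globin, and Alas2 is at chrX:150547375-150570638 on the plus strand, all by GENCODE M21 on GRCm38. The 120 bases before the RefSeq start of 4 of them (GRCm38.p6, gene strand) are shown because these genes chose the cells and make up most of their RNA, with motif matches in capitals. The motif of GATA factors was searched as GATAA on both strands (TTATC on the opposite one), that of KLF factors as CACCC (opposite GGGTG), the CCAAT box as its name spells it (opposite ATTGG) and the TATA box as TATAA (opposite TTATA). No match overlapped another, but some abut.
Hbb-bs: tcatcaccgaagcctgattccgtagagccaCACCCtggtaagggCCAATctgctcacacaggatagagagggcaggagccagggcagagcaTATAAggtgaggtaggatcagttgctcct
Hbb-bt: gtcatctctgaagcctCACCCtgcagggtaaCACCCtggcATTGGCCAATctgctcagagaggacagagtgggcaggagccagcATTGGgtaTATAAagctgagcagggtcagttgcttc
Hba-a2: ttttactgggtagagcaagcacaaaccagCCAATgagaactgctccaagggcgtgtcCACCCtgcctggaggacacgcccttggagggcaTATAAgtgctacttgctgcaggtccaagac
Alas2: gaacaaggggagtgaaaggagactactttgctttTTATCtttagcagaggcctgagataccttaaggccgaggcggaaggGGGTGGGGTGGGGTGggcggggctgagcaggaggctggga
The windows were chr7:103827929-103828048, chr7:103813924-103814043, chr11:32296372-32296491 and chrX:150547297-150547416. GENCODE starts these genes 168, 73, 3 and 42 bases further upstream.

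The Hba-a1 window (chr11:32283552-32283671) carried the same letters as that of Hba-a2 over the 117 bases that could be aligned, whereas Hbb-bs and Hbb-bt shared 88 of 119. All 4 globin windows held the KLF motif, the CCAAT box and the TATA box, a combination found in 226 of 32851 mouse promoter windows of that length (0.688%). Among these 5 genes the GATA motif was found in the Alas2 window only, with 3 abutting matches of the KLF motif on the opposite strand. Over all promoters, 10.5% held the GATA motif, 31.7% the KLF motif, 21.3% the CCAAT box and 11.8% the TATA box. These matches are letters in a window and no evidence that a factor was bound.

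The gene copies also limit what the counts can resolve. The coding sequences of Hba-a1 and Hba-a2, without the stop codon, differed at 1 of 426 bases, and those of Hbb-bs and Hbb-bt at 1 of 441. Of all 100-base windows of the Hba-a1 transcript, 56.5% occurred unchanged in Hba-a2, and 62.6% of those of Hbb-bs occurred in Hbb-bt. The split between copies is therefore uncertain. Sums over the alpha and over the beta genes do not depend on the split. Whether reads that match both copies were counted was not tested, so the sums and their ratio may miss UMIs.

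Applying the rule step by step, 100 of the 11429 young kept barcodes had Alas2, 85 of these had the globin UMIs, 74 of these had no Ptprc, and 63 (0.551% of the kept barcodes; exact Clopper-Pearson 95% interval 0.424 to 0.705%) also met the limit on PT genes. In the old library the steps left 14, 7, 4 and 2 of 10232 kept barcodes, a share of 0.0195% (0.00237 to 0.0706%). The young share was 28.2-fold the old one (exact interval 7.49 to 238).

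Most of this difference hung on the minimum of 200 genes. Without it, 99 young and 19 old barcodes met the rule, 0.657% and 0.151% of all barcodes in the matrices, and the young share was 4.36-fold the old one (2.65 to 7.55). In the old library 17 of the 19 (89.5%) lay under the minimum, and in the young library 36 of the 99 (36.4%). The young cells nearest to the minimum had 200 and 205 genes inside it and 199 and 197 outside it, and the old ones had 216 and 229 inside and 196 and 178 outside. The minimum of globin UMIs divided almost nothing: the 2 young members nearest to it had 101 and 692 globin UMIs, and 1 young barcode that met the rest of the rule stood outside it, with 0.

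Globin and PT UMIs in barcodes of other kinds also differed between the libraries. Of kept barcodes with fewer than 20 globin UMIs, 23.2% of the young and 3.16% of the old held a globin UMI. UMIs of 10 PT markers, which erythroid cells do not make, had a median of 21 per young erythroid cell and 9 per old one. Their part in the number of genes of a barcode, and so in the share that passed 200 genes, was not tested.

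**Figure D1:**
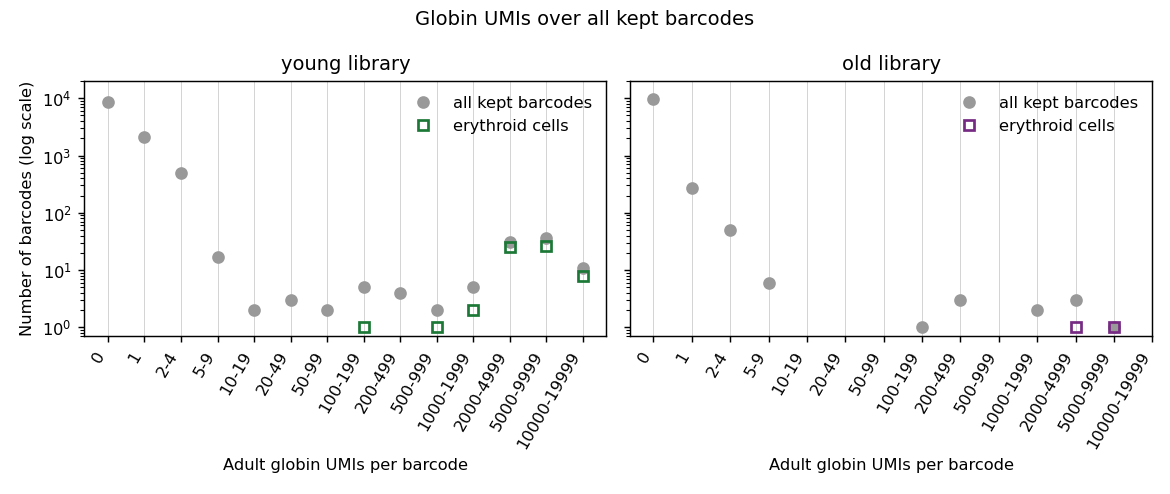
Number of kept barcodes (vertical axis, log scale, empty bins left blank) by adult globin UMIs per barcode (horizontal axis) in the young (left) and old (right) library, with all kept barcodes in grey and erythroid cells in colour. Young barcodes fall into a large group with fewer than 20 globin UMIs and a small, scattered one above 100, in which the 3 highest bins hold 25, 26 and 8 of the 63 erythroid cells. The old library has no barcode from 10 to 99.

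Globin took most of the RNA in nearly every erythroid cell. The young cells had 101 to 16001 adult globin UMIs (median 5085) of 670 to 17010 UMIs in all (median 5785), and the 2 old cells had 8241 of 8780 and 3232 of 3528. The globin share had a median of 92.2% in the young cells (15.1 to 95.2%), with 57 of 63 at 85% or more and 5 under 70%, and was 93.9% and 91.6% in the old cells. What was left was thin: a median of 448 non-globin UMIs and 253 genes per young cell, and 538 and 296 non-globin UMIs in the old cells. The old cells thus lay within the range of the young ones on each of these measures.

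Hbb-bs was the most abundant gene, with 29 to 8388 UMIs per young cell (median 2811) and 4142 and 1955 in the old cells. Hba-a1 followed with 72 to 6037 (median 1950) and 3456 and 1138. Hbb-bt had 0 to 1488 (median 383) and 596 and 118, and Hba-a2 had 0 to 114 (median 27) and 47 and 21. In sums, Hbb-bt made up 13.2% of young beta-globin UMIs and 10.5% of old ones, and Hba-a2 only 1.46% of alpha-globin UMIs in both libraries.

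The ratio of alpha- to beta-globin UMIs was 0.653 over the young cells and 0.684 over the old ones. From cell to cell it stayed between 0.605 and 0.696 between the quartiles of the young cells and was 0.739 and 0.559 in the old cells. The highest value, 2.48, belonged to the cell with 101 globin UMIs. Over the 63 young cells, which share 1 library and differ in depth, UMIs of Hbb-bs went with those of Hba-a1 (Spearman's rho = 0.966) and Hbb-bt (rho = 0.921), and globin UMIs went with Alas2 (rho = 0.772) and with the non-globin UMIs (rho = 0.487).

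Globins of other stages were absent or rare. The embryonic genes Hbb-bh1, Hbb-bh2, Hbb-y and Hba-x had no UMI in any erythroid cell, which allows up to 3 UMIs over the young cells, against 189647 of Hbb-bs. The theta-type genes Hbq1a and Hbq1b had 30 UMIs in 20 young cells and 13 in 12, and 0 and 1 in the old cells.

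**Figure D2:**
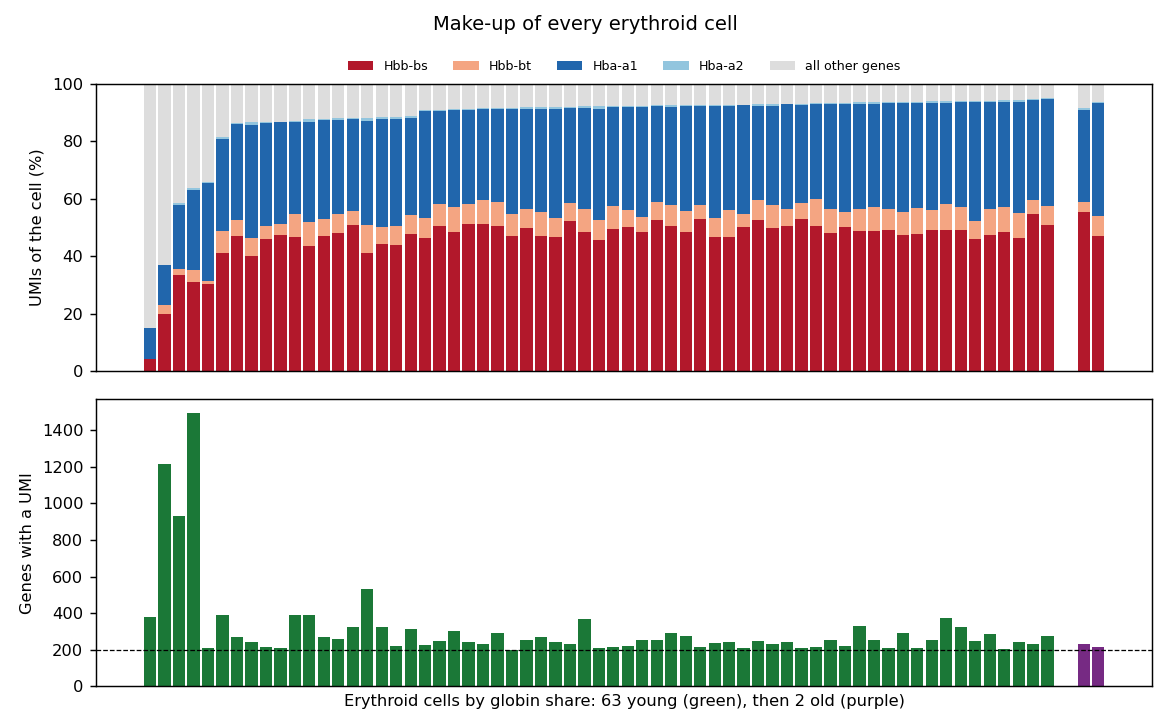
Make-up of each of the 65 erythroid cells, ordered by globin share within the young (63 bars at left) and old library (2 bars at right). The upper bars split the cell's UMIs (%) into the 4 adult globin genes and all other genes, and the lower bars give the genes with a UMI, with the minimum of 200 dashed. The 5 young cells at the left have under 70% globin, and 3 of these have over 900 genes.

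The 5 young cells under 70% globin stood apart, and they were looked at after their values were seen. They had 1495, 1217, 929, 377 and 209 genes, whereas the other 58 had 200 to 534. The cell with 1495 genes held 224 UMIs of PT markers and 19 of the 28 UMIs of cell cycle genes found in the young erythroid cells, among them 5 of Ccnb1, 4 of Cdk1 and 3 of Top2a. The cell with 1217 genes held 24 UMIs of Upk3a and 16 of Psca, genes of the urinary tract lining, and 40 of S100a6, all at 0 in the other 58. The cell with 929 genes held 183 UMIs of PT markers, and that with 377 genes held 52 beside its 101 globin UMIs. In the other 58 cells PT markers ranged from 9 to 46 UMIs.

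Scrublet, which scores barcodes against simulated doublets, called none of the 65 cells a doublet, although it called 2.87% of young and 2.40% of old kept barcodes. Results are given with these 5 cells, and counts that changed without them are given beside those results.

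Outside the globins, 94 genes had at least 50 UMIs summed over the erythroid cells, and 48 of them (51.1%) were at least 2-fold higher in erythroid cells than in all other kept barcodes of the same library, in both libraries. Levels here are CPM, counts per 1000000 non-globin UMIs, because globin would otherwise set the level of every other gene. In the young library alone 52 (55.3%) were higher and 5 (5.32%) lower, among them Malat1, Eef1a1 and the PT genes Ass1 and Miox. Because a gene had to be abundant in erythroid cells to be included, a high share was built in, and the median difference over the 94 genes was 2.01 on the log2 scale. Scaled to all UMIs, globin included, every young difference was 3.39 lower, the median was -1.38, 30 genes turned from higher to lower, and 24 genes passed 2-fold in both libraries. Without the 5 cells under 70% globin, 47 of 71 genes passed it.

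**Figure D3:**
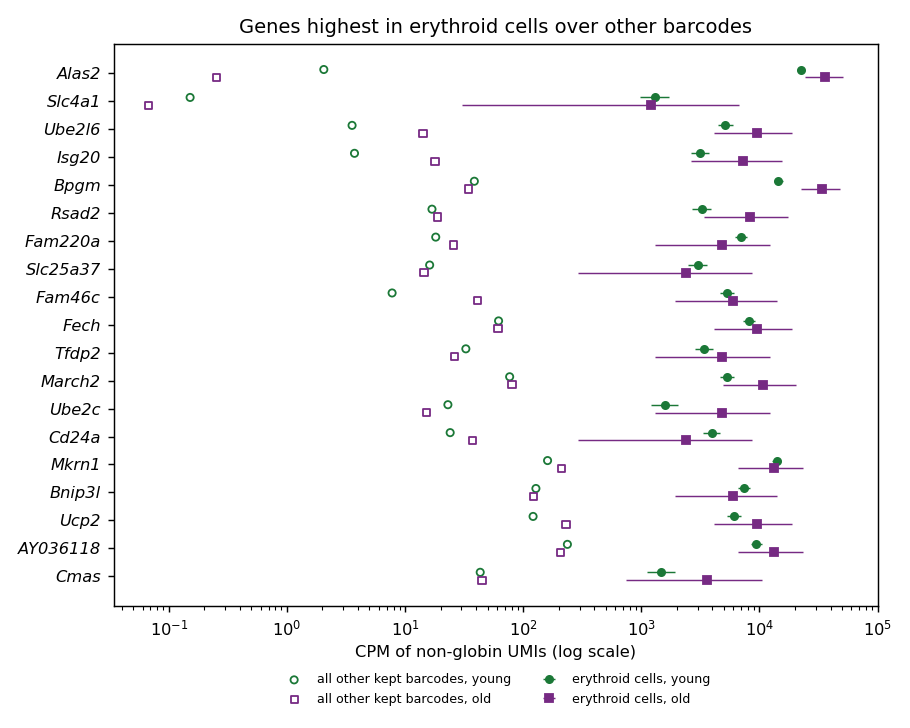
CPM of non-globin UMIs (log axis) of 19 of the 20 genes with the largest ratio of erythroid cells (filled, with exact Poisson 95% intervals) to all other kept barcodes (open), in the young (green circles) and old library (purple squares). Filled symbols lie at least 34.0-fold to the right of open ones for every gene, and the intervals of the 2 old cells are wide.

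Heme synthesis was represented by few genes, at high levels. Alas2, part of the rule, had 1 to 43 UMIs per young cell (median 12) and 27 and 3 in the old cells. Fech, ferrochelatase, which puts the iron into heme, was found in 59 of 63 young cells with up to 14 UMIs (median 4) and had 8 and 0 UMIs in the old cells. Its level was 8177 CPM in young erythroid cells and 61.9 CPM in other young barcodes, a difference of 7.04 on the log2 scale (6.88 to 7.21). Slc25a39, a mitochondrial carrier of glutathione, was in 55 young cells with 4443 against 494 CPM (log2 difference 3.17, but -0.22 when scaled to all UMIs).

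These 3 were the only genes of the 15 in the heme list with 50 UMIs. Fech and Slc25a39 were at least 2-fold higher in both libraries, beside 51.1% of all 94 genes, but Alas2 chose the cells and the filter took genes for their abundance in them. The enzymes between the first and last steps were sparse, with 12 UMIs of Urod, 8 of Alad and 8 of Cpox over the young cells, and none of Uros. Slc25a38, Abcb10 and Flvcr1 had no UMI either.

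Iron storage genes were abundant and the iron receptor was nearly absent. Ftl1 and Fth1, the light and heavy chains of the iron store ferritin, were among the most abundant transcripts, at medians of 11 and 7 UMIs per young cell and 14 and 2, and 9 and 4, in the old cells. Ftl1 was higher than in other young barcodes by 1.86 on the log2 scale and Fth1 by 0.95, and both were lower when scaled to all UMIs (-1.53 and -2.44). Slc25a37, mitoferrin, which carries iron into mitochondria, was in 45 of 63 young cells and higher by 7.55 on the log2 scale (3024 against 16.2 CPM). Tfrc, the transferrin receptor through which immature erythroid cells take up iron, had 2 UMIs in a single young cell, a level of 52.6 CPM beside 56.1 CPM in other barcodes. Of 11 listed iron genes 3 had 50 UMIs, and 2 of these were at least 2-fold higher in both libraries, a share near the 51.1% over all 94 genes.

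Of 22 genes of the red cell membrane and its skeleton, 13 had a UMI and only Epb41 and Slc4a1 reached 50. Slc4a1, the anion exchanger that is the main membrane protein of red cells, had 50 UMIs in 19 young cells, at most 10 in 1, and 1 and 0 in the old cells. Its level was 1315 CPM against 0.152 CPM in other young barcodes (log2 difference 13.08, 12.33 to 13.88). Epb41, a protein of the membrane skeleton, had 122 UMIs in 44 cells and was higher by 5.48. Slc4a1 is an erythroid marker that the rule did not use, and of the 10 erythroid markers measured 8 had a UMI in the young cells and 6 in the old ones, with Klf1 and Gata1 at 0 in both.

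Erythroid transcription factors were nearly absent. Gata1, Klf1, Tal1 and Gfi1b, which switch on the erythroid program in precursors, had no UMI in the 65 cells, and neither had Epor or Kit, the receptors of erythropoietin and stem cell factor. With 38035 non-globin UMIs over the young cells, 0 UMIs allow a level of up to 78.9 CPM, and over the old cells, with 834, up to 3597 CPM. Of 18 listed regulators 6 had a UMI, the most in E2f2 (11 UMIs in 10 cells) and Lmo2 (8 in 4), and none reached 50. Of 10 cell cycle genes 8 had a UMI, and 19 of the 28 UMIs lay in the cell with 1495 genes.

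Genes of organelle clearance and protein turnover were the broadest group. Of 15 listed genes 7 had 50 UMIs, a filter on abundance in erythroid cells, and all 7 were at least 2-fold higher in both libraries, beside 51.1% of all 94 genes, with a median difference of 5.84 in the young library. Mkrn1, a ubiquitin ligase, was in 61 of 63 young cells (median 6 UMIs, 8 and 3 in the old cells) at 14066 against 161 CPM. Ubb, a ubiquitin gene, was in 60 (median 5, 12 and 6) at 13041 against 2774 CPM, a difference of 2.23 that turned to -1.16 when scaled to all UMIs. Bnip3l, the receptor that directs mitochondria to autophagy in reticulocytes, was in 58 (median 4, 5 and 0) and higher by 5.84 (5.67 to 6.01).

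Ube2l6, an enzyme that conjugates the ubiquitin-like protein encoded by Isg15, was in 57 young cells (median 3 UMIs, 8 and 0 in the old cells) and higher by 10.50, and Tent5c, a poly(A) polymerase listed in the files as Fam46c, was in 58 and higher by 9.43. Gabarapl2 and Map1lc3b, which coat autophagosomes, were at 3944 against 215 CPM and 2550 against 282 CPM, the second difference turning to -0.21 when scaled to all UMIs. Trim10 and Trim58, ubiquitin ligases of late erythroid cells, had 14 and 1 UMIs.

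Energy and redox genes were split. Bpgm, which makes the bisphosphoglycerate that lowers the oxygen affinity of hemoglobin, was in 56 of 63 young cells, with 0 to 44 UMIs (median 7), and had 22 and 6 UMIs in the old cells. Its level was 14460 CPM in young erythroid cells and 38.6 CPM elsewhere, a difference of 8.55 (8.42 to 8.68). It was the only glycolysis gene of 14 with 50 UMIs. The general glycolytic enzymes were at or below the level of other barcodes, with Gapdh at 1025 against 2395 CPM and Ldhb at 657 against 1539 CPM. Gpx1, glutathione peroxidase, was in 60 young cells and higher by 1.92 (-1.47 scaled to all UMIs), Prdx2, a peroxiredoxin abundant in red cells, in 37 and by 3.41, and Glrx5, needed for iron-sulfur clusters, in 37 and by 3.42, the last pair at 0.02 and 0.03 when scaled to all UMIs. Car2, carbonic anhydrase, had 47 UMIs of which 22 came from 1 cell.

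Most interferon-stimulated genes had no UMI, but Rsad2 and Isg20 were frequent. Rsad2 (viperin, an antiviral enzyme) was found in 37 of 63 young cells, with up to 10 UMIs (median 1) and 7 and 0 UMIs in the old cells, at 3234 CPM against 16.9 CPM in other young barcodes (log2 difference 7.58, 7.31 to 7.84). Isg20, an interferon-induced exonuclease that was not in the list, was in 48 cells, with 5 and 1 UMIs in the old cells, and was higher by 9.72 (3155 against 3.73 CPM). The remaining listed genes did not go with them: 11 of 16, among them Ifit1, Ifit2, Ifit3, Oasl2, Oas1a, Usp18, Zbp1, Rtp4, Ifi44 and Ifi27l2a, had no UMI in any erythroid cell, Bst2 and Xaf1 had 1 each and Irf7 2. Isg15 had 14 UMIs in 6 young cells, 7 of them in 1 cell, and 3 in 1 old cell.

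Genes of MHC class I presentation were low. B2m, the common light chain, had 8 UMIs in 8 of 63 young cells and none in the old ones, at 210 CPM against 491 CPM elsewhere. H2-K1 had 11 UMIs in 4 young cells, 8 of them in the cell with 1217 genes, and 3 in 1 old cell. None of the 6 listed genes reached 50 UMIs.

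Among the 20 genes with the largest difference from other barcodes, 11 have been described. Of the others, Fam220a was in 56 cells, March2, a ubiquitin ligase, in 55 and Ucp2, a mitochondrial carrier, in 55, and they were higher by 8.59, 6.11 and 5.66. Cd24a, a surface glycoprotein, was higher by 7.35, Tfdp2, a partner of E2F factors, by 6.71 and Cmas, which activates sialic acid, by 5.09. Ube2c, a ubiquitin-conjugating enzyme of mitosis, was higher by 6.10 and was spread over 25 young cells, with at most 8 UMIs in 1. AY036118, a locus overlapping ribosomal RNA sequence, was higher by 5.32.

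Shares of cells with a UMI depend on depth, so every cell was also thinned to 200 non-globin UMIs, which left none of the 65 out. Of the thinned young erythroid cells 81.0% held Bpgm, 87.3% Mkrn1, 77.8% Bnip3l, 74.6% Fech, 49.2% Isg20 and 38.1% Rsad2, against 88.9%, 96.8%, 92.1%, 93.7%, 76.2% and 58.7% before thinning. The thinned leukocytes of the young library, barcodes with Ptprc, held the same genes in 0.468%, 3.07%, 2.77%, 0.434%, 0.401% and 0.234%. Before thinning, the young leukocytes held them in 10.5%, 52.1%, 50.9%, 8.02%, 8.56% and 1.84%, so leukocyte barcodes did not lack UMIs of these genes. Whether leukocytes made them was not tested. At the same depth, each of these shares in erythroid cells was above that in leukocytes. These genes are among those with the largest difference between the same erythroid cells and other barcodes, so the direction was built in by the choice. Thinning shows only that it did not hang on depth. Not every gene went this way: after thinning, Malat1 was held by 74.6% of young erythroid cells and 96.4% of young leukocytes.

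**Figure D4:**
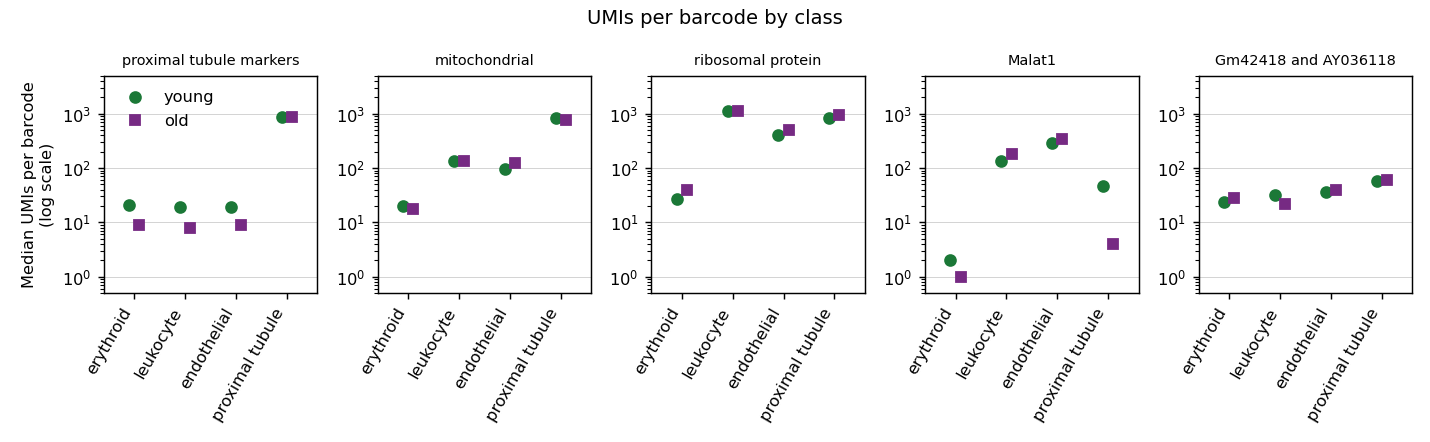
Median UMIs per barcode (log scale) of PT markers, mitochondrial genes, ribosomal protein genes, Malat1 and the pair Gm42418 and AY036118 in erythroid, leukocyte, endothelial and PT barcodes of the young (green circles) and old library (purple squares). Erythroid cells have as many PT marker UMIs as leukocytes and endothelial barcodes of their library, and far fewer mitochondrial, ribosomal protein and Malat1 UMIs.

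PT transcripts were the main RNA of another cell type in erythroid cells. Their level was near that of leukocyte and endothelial barcodes, classes that like the erythroid cells were limited to at most 2 of 5 PT genes, and far below the median of 857 in young PT barcodes. Of 10 PT markers 9 had UMIs in the young erythroid cells, 3 to 224 per cell, and their median of 21 was close to the 19 of leukocytes and the 19 of endothelial barcodes, while the old medians were 9, 8 and 9. Kap, an androgen-responsive gene of the PT, made up 3.24% of the young non-globin UMIs and was found in all 63 cells (median 14, against 12 in leukocytes and 12 in endothelial barcodes). Every listed marker of T, B, plasma, macrophage, platelet and stromal cells was at 0 in the young cells. ILC2, neutrophil, endothelial and distal epithelial markers had 2, 2, 2 and 4 UMIs in all. The rule left out barcodes with Ptprc, so the low counts of leukocyte markers were in part set by the choice. In the old cells 1 UMI of a T cell marker was found.

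The background of the cell itself was low in UMIs per barcode, but as shares of non-globin UMIs the parts went both ways beside leukocytes. Young erythroid cells had a median of 20 mitochondrial UMIs, 27 of ribosomal protein genes and 2 of Malat1, a nuclear RNA, whereas young leukocytes had 136, 1118 and 133. As a share of non-globin UMIs, mitochondrial genes took 7.32% of the summed UMIs in erythroid cells and 2.91% in leukocytes, and ribosomal protein genes 5.99% and 22.2%. Other classes differed less: mitochondrial and ribosomal protein genes took 5.99% and 6.25% in young PT barcodes. In young endothelial barcodes they took 2.20% and 7.64%, so only the ribosomal protein share was near that of erythroid cells. Among erythroid cells the mitochondrial share had a median of 4.41% and ranged from 0.176 to 43.0%, and the cell with the highest share held 546 mitochondrial UMIs. Gm42418 and AY036118, loci that overlap ribosomal RNA, took 5.62% in young erythroid cells and 0.652% in young leukocytes.

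Between the libraries few differences could be resolved, since the old values rest on 834 non-globin UMIs of 2 cells. Of the 94 genes 19 (20.2%) were at least 2-fold higher in old and 7 (7.45%) at least 2-fold lower. Another 14 had no UMI in the old cells. These had no ratio and were not counted as lower, so the count of lower genes leaves them out. Scaled to all UMIs, which shifts every difference by -0.49, the split was 5 higher and 13 lower, and without the 5 young cells under 70% globin 9 of 71 genes were higher and 9 lower. The median difference was 0.26 on the log2 scale, over the genes with an old UMI. The 10 genes with the largest differences upward, among them Eif5, Rnf10 and Ube2c, had 3 to 7 UMIs in the old cells. Of these 10 the interval lay above 0 for Eif5 (1.65, 0.17 to 2.83), Rnf10 (1.60, 0.12 to 2.78) and Rsad2 (1.38, 0.03 to 2.46).

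In all, 7 genes had an interval above 0, namely those 3 and Alas2, Bpgm, Sec61g and Gpx1. Bpgm was 1.22 higher in old (0.61 to 1.76; 28 UMIs in old and 550 in young) and Gpx1 1.06 (0.34 to 1.71; 20 and 436). Scaled to all UMIs, Bpgm was 0.72 higher (0.12 to 1.27), and the intervals of Alas2, Gpx1, Rsad2, Eif5, Rnf10 and Sec61g held 0. Most of these UMIs came from the old cell with 8241 globin UMIs, which held 22 of the 28 UMIs of Bpgm, 13 of the 20 of Gpx1 and all 7 of Rsad2. That cell also held 538 of the 834 non-globin UMIs of the 2 old cells. Of the list members compared, 1 of 1 glycolysis gene (Bpgm), 1 of 3 redox genes (Gpx1) and 1 of 1 interferon gene (Rsad2) were past 2-fold. All were higher in old. None was past 2-fold among 3 heme synthesis, 3 iron, 2 membrane and 7 organelle clearance genes. The remaining lists had no member in the comparison. Over all 94 genes, 20.2% were at least 2-fold higher in old.

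Among genes with an old UMI, the 10 largest differences downward included Malat1, Fxyd2, mt-Cytb, mt-Nd2, Kap, mt-Co3, mt-Atp6, Gpx3 and Hagh. Of these, 4 are mitochondrial genes and Fxyd2, Kap and Gpx3 are genes of the renal tubule. Kap was lower by 1.43 (interval -2.50 to -0.55), at 10 UMIs in old and 1231 in young, Malat1 by 1.94 (-4.99 to -0.08) and mt-Co3 by 1.30 (-2.92 to -0.07). An interval below 0 was found for 4 genes, these 3 and mt-Nd1, which had 177 UMIs in young and 0 in old (upper limit -0.06). Kap also had a lower median in the leukocytes of the old library than in those of the young, at 4 against 12 UMIs. The part of RNA from other cells in these differences was not tested.

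Without the minimum of genes, a choice made after the data were seen, the comparison rested on 4159 old and 46415 young non-globin UMIs in 19 and 99 cells. Of 132 genes with 50 UMIs only 2 (1.52%) were then at least 2-fold higher in old, Sh3glb1 and Ghitm, and 19 (14.4%) at least 2-fold lower. Relative to non-globin UMIs, the lists went different ways beside a median of 0.22 over the 132 genes: the median was 0.43 over 7 organelle clearance genes, 0.34 over 5 redox genes, 0.07 over 4 iron genes, -0.25 over 2 glycolysis genes and -0.39 over 2 membrane genes. Of single genes picked after their values were seen, Fech was higher in old by 0.88 (0.46 to 1.28), Bpgm by 0.74 (0.41 to 1.07), Ube2l6 by 0.72 (0.16 to 1.24) and Mkrn1 by 0.65 (0.30 to 0.98). Slc4a1 differed the other way, by -1.25 (-4.33 to 0.68) on 2 old UMIs. Alas2, which the rule required, was at 0.83 (0.59 to 1.07). Rsad2 was 0.90 higher (0.17 to 1.55), while Isg20 differed by -0.21 (-1.30 to 0.72). The higher values hung on the scaling: relative to all UMIs, which shifts every value by -0.79, they were 0.09 for Fech, -0.04 for Bpgm, -0.07 for Ube2l6, -0.14 for Mkrn1 and 0.11 for Rsad2, each with an interval that held 0.

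Kap was lower by 1.19 in this wider set (interval -1.58 to -0.82), and mt-Atp6 by 0.98 and mt-Nd1 by 1.47. PT markers made up 4.72% of the non-globin UMIs of these cells in young and 2.81% in old.

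**Figure D5:**
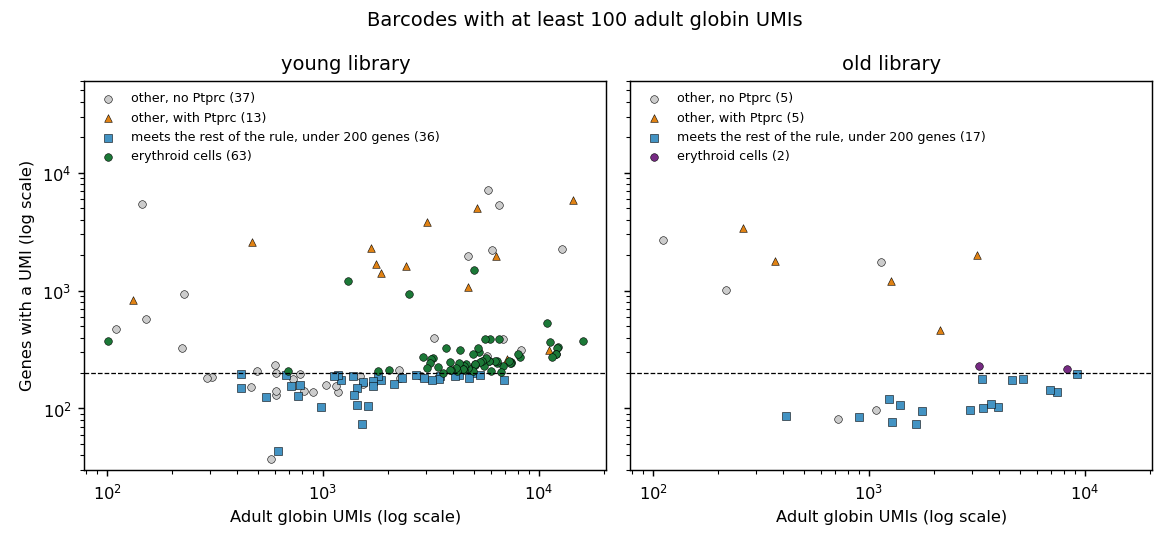
Genes with a UMI (vertical, log scale) against adult globin UMIs (horizontal, log scale) for every barcode of the matrices with at least 100 globin UMIs, in the young (left) and old library (right). The dashed line is the minimum of 200 genes. Of the old barcodes that meet the rest of the rule, 17 lie below the line and 2 above it, against 36 and 63 of the young ones.

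Barcodes under the minimum also carried much globin. The 36 young ones had a median of 1574 globin UMIs (416 to 6902) and 175 genes, and the 17 old ones 3358 (414 to 9226) and 108 genes. Their globin share had a median of 89.9% in young and 94.3% in old, and Hbb-bt made up 9.66% and 9.73% of beta-globin UMIs, against 13.2% in the young members. T, B, plasma, macrophage, platelet and stromal markers were at 0 in the 99 young cells without the minimum. These cells too were chosen without Ptprc, which in part sets the leukocyte markers.

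Globin-rich barcodes also occurred beside leukocyte RNA. Among kept barcodes with Alas2 and at least 100 globin UMIs, 11 young and 3 old held Ptprc and were left out by the rule. The young ones had a median of 4711 globin UMIs, within the range of the erythroid cells, and 13.1% of their beta-globin UMIs were Hbb-bt, beside 13.2% in the erythroid cells. Erythroid cells held 73.0% of all adult globin UMIs in the young kept barcodes and 55.8% in the old ones.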

How the data were processed

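The scRNA-seq data were 1 library of young and 1 of old MRL-lpr kidney cells. The authors aligned reads of 10x Chromium libraries to mm10 with Cell Ranger 3.1.0, and the deposited matrices hold UMI counts of 31053 genes without normalization. A barcode was kept when 200 or more genes had a UMI and mitochondrial genes took no more than 20% of its UMIs, and erythroid cells were taken by the rule given in the report. The members and all gene lists were chosen with earlier results of these data known.

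Counts were summed over cells and scaled to 1000000 non-globin UMIs. Levels have exact Poisson, ratios exact binomial and shares exact Clopper-Pearson 95% intervals. A count of 0 was given the limit of 3 counts. Genes with at least 50 UMIs in erythroid cells were compared, a 2-fold difference was the size reported, and no p-value was computed. Leukocyte barcodes had Ptprc and at most 2 of the 5 PT genes, PT barcodes at least 3 of these and no Ptprc, and endothelial barcodes at least 2 of Pecam1, Cdh5, Emcn, Plvap and Kdr, no Ptprc and at most 2 PT genes. Named were all genes of the rule, the most abundant members of each list, list members past 2-fold between libraries, the 10 genes at each end of old over young and the 20 highest over other barcodes. Genes of the 5 members with little globin, Isg20 as an interferon gene, Sh3glb1 and Ghitm, and the genes named without the gene minimum were chosen after their values were seen. Some genes that the rule names are not reported here. Doublets were called by Scrublet (Scanpy 1.11.5, seed 7) and kept.

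Python 3.11.15, NumPy 2.4.6, SciPy 1.17.1, pandas 2.3.3 and Matplotlib 3.10.9 were used. The ratio step was tested on simulated data. Sequences came from RefSeq promoters (GRCm38.p6), all 5 genes matched, and positions and transcripts from GENCODE M21. Ahsp was not analysed here. Alternatives were other limits of genes, mitochondrial share, globin, Alas2, Ptprc and PT genes, other scalings, other minimums of UMIs and other thinning. The comparisons without the gene minimum and with at least 80% globin were added after the data were seen.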

Additional observations from a re-analysis of the deposited data

Results flagged for a closer look

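Barcodes that meet every other condition but have fewer than 200 genes were left out of the members, and they are many: 36 in the young library and 17 in the old one. The rule itself gave them at least 100 globin UMIs.

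Kept barcodes that carry Alas2, at least 100 globin UMIs and the leukocyte gene Ptprc were also outside the members, 11 in the young library and 3 in the old one. How leukocyte and erythroid RNA came together in a barcode was not tested.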

How the results depend on the processing

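The number of young erythroid cells, 63, moved to 4 with at least 500 genes, 99 with no minimum of genes and 22 with none of the 5 PT genes, and the old number, 2, to 0 and 19 under the first pair. It was 58 to 69 in young and 2 to 5 in old under the other limits. The median of globin UMIs per young cell, 5085, became 3768.5 with at least 500 genes (4 cells) and 4190 with no minimum. Of genes at least 2-fold higher in erythroid cells in both libraries, 48, there were 28 of 39 with none of the PT genes and 24 of 94 scaled to all UMIs. Of genes 2-fold higher in old, 19, there were 3 with none of the PT genes, 2 with no minimum of genes, 9 with at least 80% globin, 5 scaled to all UMIs, and 58 and 6 with minimums of 20 and 100 UMIs. Of genes 2-fold lower in old, 7, there were 4 with none of the PT genes, 19 with no minimum of genes, 13 scaled to all UMIs, and 2 without mitochondrial and ribosomal protein genes and Malat1. With no minimum of genes, Eif5 changed sign to -0.059 and Hsp90ab1 to -0.82 in old over young. The causes were not tested. Removing Scrublet's doublets changed no member. With at least 500 genes no old cell was left, so the comparisons between libraries gave no value there. No paired analysis was possible because each age had 1 library. The 834 non-globin UMIs of the 2 old cells limit every statement on age.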
